A study of Mus musculus with 6 samples.

Results

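The genes of 10 chemokines and inflammatory cytokines were examined in the brain of neonatal mice given ethanol, namely Ccl2, Ccl7, Ccl12, Ccl3, Ccl4, Ccl5, Cxcl10, Il1b, Il6 and Tnf. They are 10 of the 19938 genes that the array measured with a probeset of 1 named gene. Each of the 10 had 1 such probeset, so that no choice between probesets arose. The set was defined by gene name, but it was chosen with earlier results of these data known. Genes near background were kept in it and marked. Of the 10 genes, 2 lay above background, Ccl3 and Ccl5, and 8 lay near it.

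The animals were males of C57BL/6J, a standard inbred strain, at postnatal day 7, and the labels name no introduced allele. Ethanol pups received 2 subcutaneous doses of 2.5 g/kg ethanol, as a 20% solution in 0.15 M saline, 2 h apart, and saline pups received the 0.15 M saline alone. Whole brains were taken 4 h after the first dose, and every dam was out of the cage during treatment of both groups. There were 2 ethanol arrays, numbered 2 and 4, and 4 saline arrays, numbered 1, 3, 5 and 6. Each array held RNA pooled in equal amounts from 3 males of different litters, so that the 6 arrays stand for 18 mice and the spread between arrays is a spread between pools. Every ethanol pup had a saline littermate among the controls.

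Chemokines are small secreted proteins that attract leukocytes by binding receptors coupled to G proteins, and they are sorted into CC and CXC classes by the spacing of their first cysteines. Interleukin-1 beta, interleukin-6 and tumour necrosis factor are the classic inflammatory cytokines. In the brain, microglia, the resident macrophages, are a main source of several of these products, and astrocytes, endothelium and border macrophages can make some of them. Most of these genes are transcribed at a low level in resting tissue and are induced quickly through NF-kB, AP-1, C/EBP or interferon-driven factors.

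RefSeq promoter windows on build GRCm38.p6 were held for 6 of the 10 genes. The 250 bases before the start of 3 of them are shown, Ccl3 because the results below turn on it, and Cxcl10 and Il6 because they carry several of the inducible motifs while their signal was near background. Capitals mark matches, on either strand, to 5 motifs, which were NF-kB (searched by its degenerate consensus), AP-1 (TGANTCA), C/EBP (TTGNGCAA), the interferon-stimulated response element (ISRE, 2 runs of GAAA with any 2 bases between them) and TATAAA.
Ccl3, chr11:83649379-83649628, minus strand: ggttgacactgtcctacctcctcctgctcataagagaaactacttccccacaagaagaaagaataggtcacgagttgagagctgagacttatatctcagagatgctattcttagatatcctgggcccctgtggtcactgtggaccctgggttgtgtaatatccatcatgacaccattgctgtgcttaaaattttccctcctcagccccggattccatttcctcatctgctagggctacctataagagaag
Cxcl10, chr5:92348890-92349139, minus strand: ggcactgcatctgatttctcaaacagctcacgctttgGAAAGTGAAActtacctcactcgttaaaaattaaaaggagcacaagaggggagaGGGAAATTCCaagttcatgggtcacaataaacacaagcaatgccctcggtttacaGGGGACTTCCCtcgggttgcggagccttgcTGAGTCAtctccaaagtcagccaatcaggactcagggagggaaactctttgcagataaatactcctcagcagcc
Il6, chr5:30012864-30013113, plus strand: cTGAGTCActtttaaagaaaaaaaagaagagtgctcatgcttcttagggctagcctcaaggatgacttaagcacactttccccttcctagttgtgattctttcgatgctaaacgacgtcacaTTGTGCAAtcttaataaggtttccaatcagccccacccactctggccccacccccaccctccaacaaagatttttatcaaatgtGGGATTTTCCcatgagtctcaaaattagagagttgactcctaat

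The Cxcl10 window held the ISRE match from -213 to -204, NF-kB matches from -159 to -150 and from -104 to -95, and an AP-1 match from -74 to -68, counted from the base before the start. A further NF-kB match in it, from -103 to -94, overlaps the second. The Il6 window held an AP-1 match from -249 to -243, a C/EBP match from -128 to -121 and an NF-kB match from -44 to -35. None of these 5 letter patterns occurred in the Ccl3 window, which says nothing about the factors there. Of the other windows, those of Tnf, Il1b and Ccl12 held the TATAAA match alone. Among all 32851 promoter windows of the same length, 7.25% held an NF-kB match, 6.75% an AP-1 match, 2.61% a C/EBP match, 2.98% an ISRE match and 12.4% TATAAA. A match is a description of the letters and not a site shown to be bound.

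Values are intensities as deposited, read as log2 values because of their range, and given as mean ± SD over 4 saline or 2 ethanol arrays. Differences are log2 differences, ethanol minus saline, with the standard error (SE) of a limma fit over all 6 arrays and 19938 genes, two-sided, with Benjamini-Hochberg adjustment over all of them. The guide to background was a set of 1194 olfactory and vomeronasal receptor genes, with a median level of 5.35. These receptor genes were taken to be mostly silent in brain, which was not tested. A gene was called near background if its mean was below their 95th percentile, 6.21. Signal in that range is in good part non-specific, so that a difference there can understate a difference in RNA. On the first principal component, saline array 3 scored 15.0 against -8.07 to 4.59 for the other arrays, and values without it are given where it matters. The brain label was borne out by the neuron and astrocyte markers, of which 8 of 8 and 8 of 8 lay above background.

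No member passed the adjusted threshold of 0.05 in limma, where 12 of all genes (0.0602%) did. Ccl3 came nearest, with both ethanol pools below all saline pools and an ethanol intensity of 0.810 of the saline intensity. Ccl7 showed the same separation at a level near background. The other 8 members had ethanol values that overlapped the saline values, and the 95% intervals of their differences included 0. At an unadjusted p under 0.05 there were 2 members lower with ethanol and 0 higher, against 8.63% and 3.08% of all genes. Both ethanol arrays lay below all saline arrays for the same 2 members, Ccl3 and Ccl7, against 15.9% of all genes. In the deposited values, no member had both ethanol arrays above all saline arrays, which 6.04% of all genes had.

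**Figure D1:**
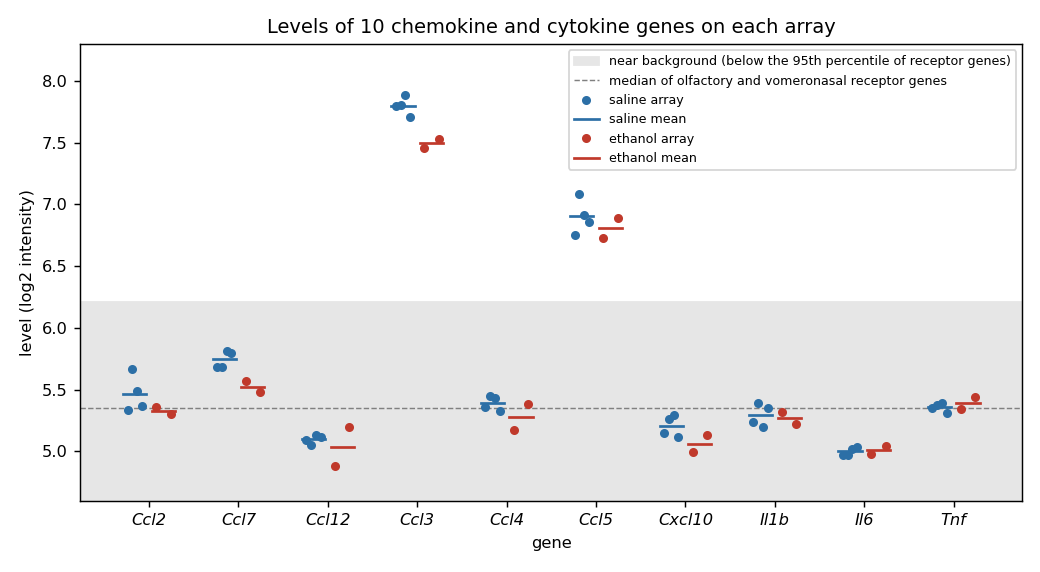
Level of each gene (log2 intensity, vertical axis) on the 4 saline and 2 ethanol arrays, with points for single arrays and short lines for group means. The shaded range lies below 6.21, the limit of near background, and only Ccl3 and Ccl5 lie above it.

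Ccl3 and Ccl4 encode the macrophage inflammatory proteins, which attract monocytes and T cells, and Ccl3 acts on the receptor Ccr1. For Ccl3 (probeset 10389231) the saline arrays 1, 3, 5 and 6 read 7.79, 7.81, 7.89 and 7.71, and the ethanol arrays 2 and 4 read 7.46 and 7.53. All saline pools lay above both ethanol pools, with a gap of 0.176 between the nearest values of the groups, which was close to the whole saline range of 0.181. The means were 7.80 ± 0.07 (SD, n = 4) and 7.50 ± 0.05 (SD, n = 2). Their difference was -0.30 ± 0.07 (SE), or 0.810 of the saline intensity, with a 95% interval of -0.45 to -0.16 (limma unadjusted p = 0.000479, adjusted p = 0.101). By p-value Ccl3 ranked 94 among all genes, and 94 genes, or 0.471%, had a difference as low or lower. An exact two-sided permutation test over the 15 ways of choosing 2 of 6 arrays gave p = 0.0667, the smallest value that it allows.

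Ccl4 lies beside Ccl3 on chromosome 11, and their RefSeq gene records overlap. For Ccl4 (probeset 10379721) the saline arrays 1, 3, 5 and 6 read 5.36, 5.45, 5.43 and 5.32, and the ethanol arrays 5.17 and 5.38. Ethanol array 2 was the lowest of the 6 and ethanol array 4 lay among the saline arrays. The difference was -0.12 ± 0.07 with a 95% interval of -0.27 to 0.040 (limma adjusted p = 0.555). It was -0.0088 without ethanol array 2 and -0.22 without ethanol array 4, and since the signal was near background the values cannot show whether Ccl4 followed its neighbour.

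The monocyte chemoattractant genes Ccl2, Ccl7 and Ccl12, whose products act on Ccr2, lie together on chromosome 11 and were all near background. Ccl7 (probeset 10379518) read 5.69, 5.69, 5.82 and 5.79 on saline arrays 1, 3, 5 and 6 and 5.57 and 5.48 on the ethanol arrays. The groups did not overlap, and the means were 5.75 ± 0.07 and 5.52 ± 0.06. The difference was -0.22 ± 0.07, with a 95% interval of -0.36 to -0.080 (limma unadjusted p = 0.00498, adjusted p = 0.235), and the exact permutation p was 0.0667, again the smallest possible. Among the 7404 genes near background, 172, or 2.32%, had a difference as low or lower.

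Ccl2 (probeset 10379511), the main monocyte attractant, read 5.34, 5.67, 5.49 and 5.37 on saline arrays 1, 3, 5 and 6 and 5.36 and 5.30 on the ethanol arrays. Its highest value was that of saline array 3, and the ethanol values lay within or just below the others. The difference was -0.14 ± 0.09, with an interval of -0.32 to 0.049 (limma adjusted p = 0.561), and -0.068 without saline array 3. Ccl12 (probeset 10379530) read 5.09, 5.05, 5.14 and 5.12 with saline and 4.88 and 5.20 with ethanol. Here the ethanol pools were the lowest and the highest of the 6 arrays. The difference was -0.061 ± 0.080, with an interval of -0.23 to 0.11 (limma adjusted p = 0.800).

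Ccl5 encodes RANTES, a ligand of Ccr1 that is made by T cells and by activated glia. Its probeset (10389207) read 6.75, 7.08, 6.92 and 6.86 on saline arrays 1, 3, 5 and 6 and 6.73 and 6.89 on the ethanol arrays. Ethanol array 4 lay inside the saline range, and ethanol array 2 lay just below it. The means were 6.90 ± 0.14 and 6.81 ± 0.12, and the difference was -0.096 ± 0.086, with an interval of -0.28 to 0.089 (limma adjusted p = 0.691). Without saline array 3, which gave the highest value, it was -0.036, and it was -0.013 without ethanol array 2 and -0.18 without ethanol array 4.

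Cxcl10 encodes the interferon-induced ligand of Cxcr3. It (probeset 10531415) read 5.15, 5.26, 5.29 and 5.11 on saline arrays 1, 3, 5 and 6 and 4.99 and 5.13 on the ethanol arrays, so that only ethanol array 2 lay below all saline pools. The difference was -0.14 ± 0.07, with an interval of -0.30 to 0.011 (limma adjusted p = 0.456). It was -0.074 without ethanol array 2 and -0.21 without ethanol array 4, the latter with an unadjusted p of 0.0381 in limma. Without saline array 6 it was -0.17 (limma unadjusted p = 0.0412).

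The 3 cytokine genes were near background on every array. Il1b (probeset 10487597) read 5.24, 5.39, 5.20 and 5.35 on saline arrays 1, 3, 5 and 6 and 5.32 and 5.22 on the ethanol arrays, with both ethanol values inside the saline range. Its difference was -0.023 ± 0.070, with an interval of -0.17 to 0.13 (limma adjusted p = 0.928). Il6 (probeset 10520452) read 4.97, 4.97, 5.02 and 5.04 with saline and 4.98 and 5.05 with ethanol, and its difference was 0.011 ± 0.060, with an interval of -0.12 to 0.14 (0.958). Tnf (probeset 10450501) read 5.35, 5.37, 5.39 and 5.31 with saline and 5.35 and 5.44 with ethanol, and its difference was 0.036 ± 0.061, with an interval of -0.094 to 0.17 (0.850). The upper ends of these intervals are rises in intensity of 9.35% for Il1b, 10.2% for Il6 and 12.3% for Tnf, and larger rises in intensity lie outside them. Since the signal was near background, these limits hold for the intensity and not for the RNA.

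**Figure D2:**
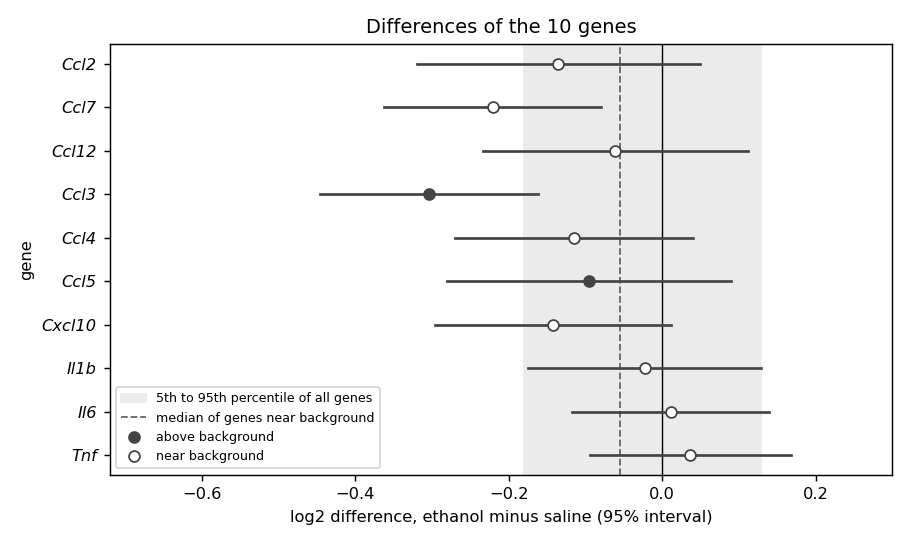
Log2 difference, ethanol minus saline (horizontal axis), of each gene, with the 95% interval of the limma fit. Filled points are the 2 genes above background and open points the 8 near it. The shaded band holds the middle of all genes, and the dashed line is the median of genes near background, -0.055.

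The direction of the members was close to that of dim genes in general. Of the 10 members, 8 had a difference below 0, as had 63.8% of all genes, 78.5% of the 7404 genes near background and 69.8% of the olfactory and vomeronasal receptor genes. The median difference was -0.11 over the members and -0.030 over all genes. For the 8 members near background it was -0.088, against -0.055 for all genes near background and -0.040 for the receptor genes. Both ethanol arrays lay below all saline arrays for 1 of those 8 members and for 18.8% of genes near background. The median of the receptor genes themselves was 5.28, 5.39, 5.41 and 5.36 on saline arrays 1, 3, 5 and 6, against 5.27 and 5.37 for ethanol arrays 2 and 4, so that part of the array-to-array spread is a spread in background. The members were therefore read again on a second scale.

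On that scale, each array was centred on its receptor genes. Of all genes, 2.78% were then lower and 4.35% higher at an unadjusted p under 0.05, against 8.63% and 3.08% in the deposited values, which shows how far the split of calls rests on the scale. Ccl3 then had a difference of -0.26 ± 0.07 (limma unadjusted p = 0.00240, adjusted p = 0.351) and Ccl7 one of -0.18 ± 0.07 (unadjusted p = 0.0309, adjusted p = 0.629). Of the 10 members, 7 were below 0, since Il1b changed sign to 0.016. Both ethanol arrays lay below all saline arrays for 2 members, Ccl3 and Ccl7, and above them for 1, Tnf. For Ccl7 the margin was very thin. Minus the receptor median, it read 0.2935 on ethanol array 2 against 0.2946 on saline array 3. Tnf minus the receptor median was 0.073 and 0.070 on ethanol arrays 2 and 4, against -0.052 to 0.069 on the saline arrays. The share of all genes so separated on this scale was not counted.

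The arrays differed from each other across the members. Ethanol array 2 was the lowest of the 6 arrays for 5 members (Ccl12, Ccl3, Ccl4, Ccl5 and Cxcl10) and below the saline mean for 9. Ethanol array 4 was the lowest for 2 members (Ccl2 and Ccl7), the highest for 3 (Ccl12, Il6 and Tnf) and below the saline mean for 7. Saline array 3 was the highest for 4 members, and saline array 5 for 3. Saline array 1 lay below the saline mean for all 10 members. Without saline array 3, Ccl3 had a difference of -0.30 ± 0.07 (limma adjusted p = 0.130) and Ccl7 one of -0.24 ± 0.06 (0.197). Over 15 other settings of the fit, Ccl3 lay between -0.34 and -0.26, and over the 14 that tested it Ccl7 lay between -0.26 and -0.16. The lowest adjusted p in limma was 0.0558 for Ccl3, when the dimmest 50% of genes were dropped, and 0.154 for Ccl7, with array weights.

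**Figure D3:**
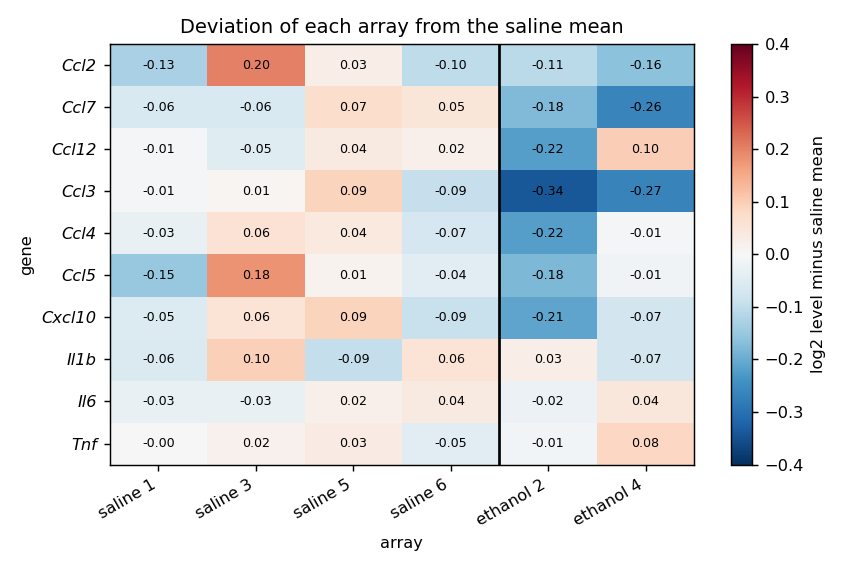
Log2 level of each gene on each array minus its mean over the 4 saline arrays, by colour and number. Both ethanol columns are clearly below 0 for Ccl3 and Ccl7, while the 2 columns differ in sign for Ccl12, Il1b, Il6 and Tnf.

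**Figure D4:**
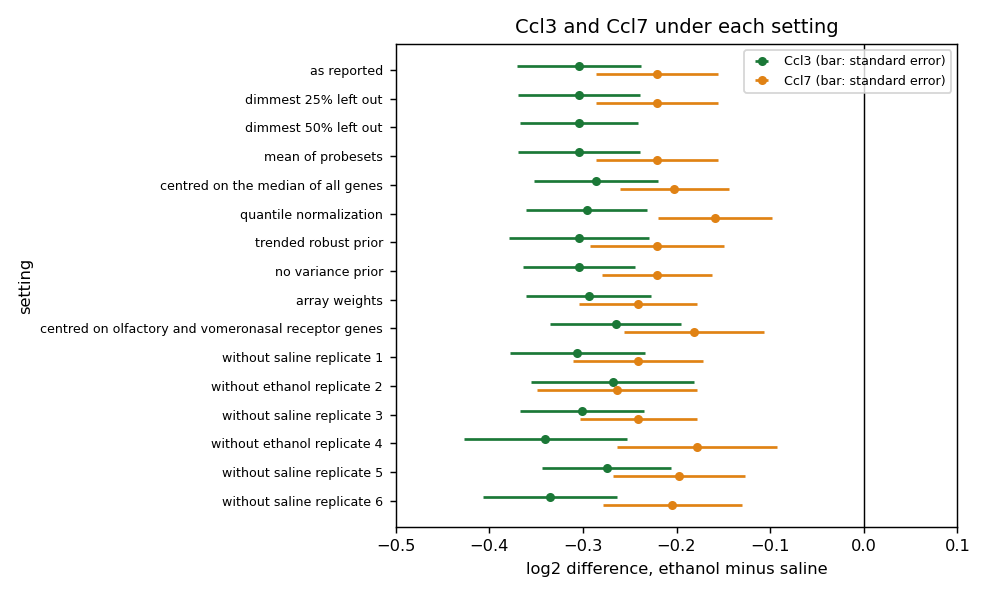
Log2 difference of Ccl3 and Ccl7 (horizontal axis) as reported and under 15 other settings, with the standard error. All values lie below 0, from -0.34 to -0.26 for Ccl3, and Ccl7 has no value where the dimmest 50% of genes were left out.

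Receptors of the members were measured on both sides of the background limit. Il6st, the signalling chain shared by the interleukin-6 family, had 10.7 ± 0.09 with saline and 10.8 ± 0.02 with ethanol, a difference of 0.094 ± 0.069 (limma adjusted p = 0.611). Il6ra, the specific interleukin-6 receptor chain, had 6.45 ± 0.06 and 6.51 ± 0.06, and the tumour necrosis factor receptors Tnfrsf1a and Tnfrsf1b had 6.95 ± 0.08 and 7.01 ± 0.09, and 6.30 ± 0.08 and 6.29 ± 0.02. Cxcr3, the receptor of Cxcl10, had 6.50 ± 0.18 and 6.39 ± 0.12. Differences of these 5 receptor genes ran from -0.11 for Cxcr3 to 0.094 for Il6st, with adjusted p of 0.611 or more in limma. Ccr1 and Ccr2 were near background, with 5.16 ± 0.03 and 5.12 ± 0.10 for Ccr1 and 5.57 ± 0.09 and 5.38 ± 0.004 for Ccr2. Ccr2 had a difference of -0.18 ± 0.07 (limma unadjusted p = 0.0184, adjusted p = 0.326), with both ethanol arrays below all saline arrays. Il1r1 was not analysed here. Over the whole list of chemokine and cytokine receptors, 16 of 18 were measured, 2 were lower and 0 higher at an unadjusted p under 0.05, where 8.63% and 3.08% of all genes were, and the median difference was -0.023. The other lower one was Il1r2, the decoy receptor of interleukin-1, near background, at -0.24 ± 0.08 (limma adjusted p = 0.260).

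The genes around the members were followed through 6 lists with 128 measured of 135 listed, 54 of them above background. None passed the adjusted threshold in limma, and 12 were lower and 5 higher at an unadjusted p under 0.05, or 13.3% in either direction against 11.7% of all genes. Among 26 other chemokines, 2 were lower and 1 higher at that level, with a median of -0.054. They were Ccl19, which guides T cells and dendritic cells through Ccr7 (-0.35 ± 0.10), Ccl24, an eosinophil attractant near background (-0.33 ± 0.10), and Ccl25, the Ccr9 ligand (0.20 ± 0.06), with limma adjusted p of 0.213, 0.231 and 0.255. Ccl19 has near-identical pseudogene copies in the mouse, so that its value is uncertain. Of 29 other cytokines measured, 5 were lower and 2 higher, with a median of -0.072. Tgfb3, a transforming growth factor beta ligand, had 7.86 ± 0.07 with saline and 8.15 ± 0.06 with ethanol (difference 0.29 ± 0.07, limma adjusted p = 0.120), and the near-background genes Il15 and Il23a had differences of -0.27 ± 0.07 and -0.21 ± 0.06 (0.200 and 0.217).

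In the Toll-like receptor and NF-kB pathway, which switches on most of the members, 26 of 29 genes were measured, 2 were lower and 1 higher at an unadjusted p under 0.05, and the median was -0.016. That count is close to the share of all genes at this level in either direction, 11.7%. Ly96, which encodes MD-2, the partner of TLR4 in sensing endotoxin, read 8.66, 8.56, 8.44 and 8.78 on saline arrays 1, 3, 5 and 6 and 8.11 and 8.36 on the ethanol arrays. All saline pools lay above both ethanol pools, and the difference was -0.37 ± 0.09 (limma unadjusted p = 0.00140, adjusted p = 0.173). Nfkbia, which encodes the NF-kB inhibitor I-kappa-B alpha and is itself an NF-kB target, had 8.20 ± 0.09 and 8.37 ± 0.002, a difference of 0.17 ± 0.07 (limma adjusted p = 0.360). Nfkb2, which encodes the p100 precursor, had -0.19 ± 0.06 near background (0.261). Among 12 genes of the inflammasome and cytokine processing, Rhbdf1, a regulator of the protease that sheds tumour necrosis factor, was the 1 lower member at -0.14 ± 0.06 (limma adjusted p = 0.422). Among 19 measured inflammatory effectors and feedback genes, Stat3, the transcription factor that interleukin-6 family cytokines activate, was the 1 higher member, from 9.36 ± 0.06 to 9.55 ± 0.03 (difference 0.20 ± 0.06, limma adjusted p = 0.269), and 0 were lower.

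**Figure D5:**
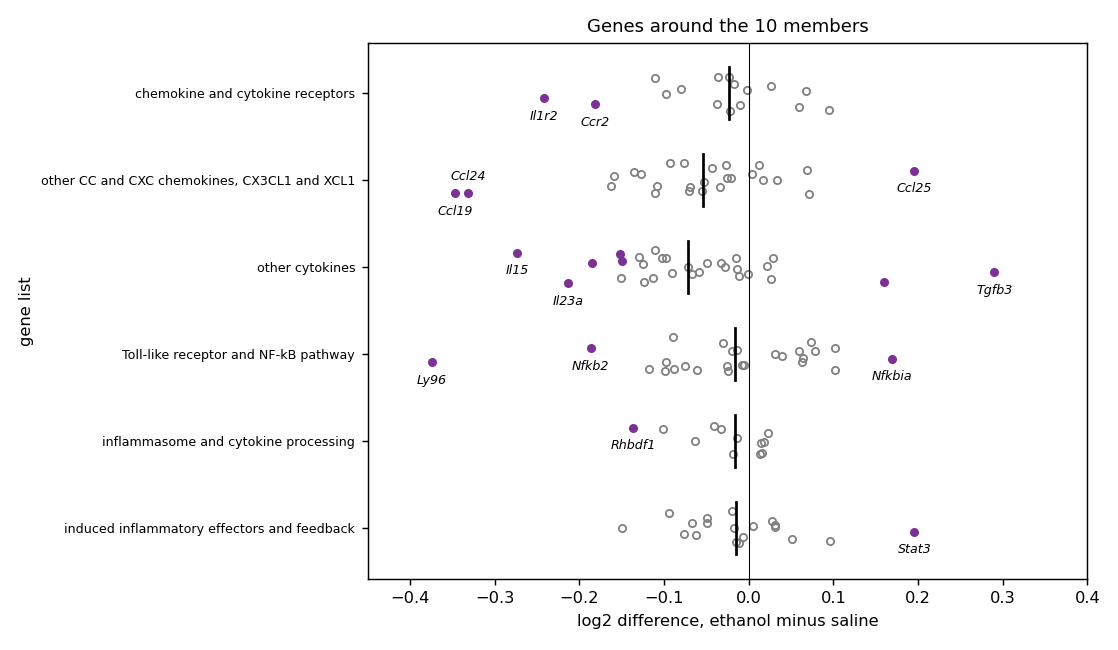
Log2 difference, ethanol minus saline, of each measured gene in 6 lists around the members. Filled points have an unadjusted p under 0.05 in limma, up to 3 a list are named, and black bars are list medians, from -0.072 to -0.015.

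Markers of the cells that could carry these transcripts were read beside Ccl3. In whole-brain RNA, fewer cells of a type and less RNA per cell cannot be told apart. Of 15 measured microglia and macrophage markers, 12 lay above background, and Aif1, Itgam and Ptprc lay near it. In limma, 1 marker was lower at an unadjusted p under 0.05, where 8.63% of all genes were. It was Fcrls, at -0.20 ± 0.08 (limma adjusted p = 0.367). Its groups overlapped, with 7.24 on ethanol array 2 against 7.23 on saline array 6. The 15 markers had a median difference of -0.044. Their mean level was 7.44 to 7.50 on the saline arrays and 7.42 to 7.43 on the ethanol arrays. Taken array by array, Ccl3 minus that mean level was 0.245 to 0.384 on the saline arrays and 0.026 and 0.115 on the ethanol arrays. The groups did not overlap in that measure, nor in the mean level itself. Against the mean of 8 perivascular and border macrophage markers, it was 1.19 to 1.30 with saline and 0.986 and 1.02 with ethanol. In that list 0 markers were at an unadjusted p under 0.05 in limma, where 11.7% of all genes were. Ccl3 minus the astrocyte mean level was -2.62 to -2.45 on the saline arrays and -2.81 and -2.79 on ethanol arrays 2 and 4. The groups also did not overlap against the monocyte and neutrophil list or the T, NK and B cell list. The separation was not particular to microglia markers. Ccl3 was already separated before any list mean was subtracted, so these measures cannot show which cells carried the difference. A difference in cell numbers was not tested.

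Markers of blood-derived immune cells gave little signal. All 9 measured monocyte and neutrophil markers lay near background, among them S100a8, S100a9, Ly6g and Mpo, with list means of 5.20 to 5.33 on saline and 5.23 to 5.26 on ethanol arrays. Of 8 T, NK and B cell markers, 7 lay near background, and the list means were 5.28 to 5.45 with saline and 5.35 to 5.37 with ethanol. Pituitary markers were a list that differed between the groups. List means were 6.29 to 6.51 on the saline arrays and 6.11 and 5.63 on ethanol arrays 2 and 4. Of the 7 measured, 6 were lower at an unadjusted p under 0.05 in limma. Only 3 of the 7 lay above background, and Prl, Pomc, Tshb and Fshb lay near it. Gh and Cga read 5.72 and 6.06 on ethanol array 4, against 7.65 and 7.19 on ethanol array 2. Ccl3 minus the pituitary mean level was 1.22 to 1.52 on the saline arrays and 1.35 and 1.90 on ethanol arrays 2 and 4, so that the groups overlapped in that measure. The part of the pituitary in the values of Ccl3 and of the other members was not tested. Over the 13 marker lists, 12 of 100 measured entries were lower and 0 higher at that level, against 8.63% and 3.08% of all genes. Of those 12, 6 were pituitary markers, and 0 of all entries passed the adjusted threshold in limma.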

How the data were processed

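The table deposited by the authors gives each probeset of an Affymetrix whole-transcript array 1 value for every pool, labelled from 200 ng of pooled RNA per the labels' protocols. The deposited values were taken as log2 intensities from their range, 4.10 to 14.9, since the log base is not given in the sources used here. Per the submitters' processing notes, the software was Partek 6.6, and background correction, normalization and summarisation are not given there.

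Of 35556 probesets, 21789 carried 1 gene symbol in the platform annotation, 1621 several and 12146 none. Those with 1 symbol gave 19938 genes, each read from its brightest probeset on average, with no filter on dim genes. Linear models came from limma 3.58.1 under R 4.3.3 (lmFit, then eBayes), the single term being treatment, with 4 residual and 8.92 prior degrees of freedom. The fit was tested on simulated data. The number of arrays limits the precision.

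The members and lists were chosen with earlier results of these data known. All members were named, and from each list up to 3 genes at an unadjusted p under 0.05, or the gene of smallest p, were eligible. Alternatives were dim-gene filters, probeset averaging, 3 scalings, variance settings, array weights and leaving out each array. The scaling on receptor genes was chosen after seeing the data.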

Additional observations from a re-analysis of the deposited data

Results flagged for a closer look

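None of the 10 members had a saline array that stood apart from the other 3. Of 44 genes named by rule and read in the same way, 3 did, and chance gives about 1 in 20. For Stat3 the gap of the lowest saline array, array 3 at 9.27, to the next was 0.882 of the range of the 4 saline arrays. For Gzma, a cytotoxic granule gene near background, the gap below the others was 0.877 of the range, with array 1 at 5.35. For Pomc, the pituitary hormone precursor gene near background, it was 0.846, with array 1 at 5.50.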

How the results depend on the processing

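Under 15 alternatives, 0 members passed the adjusted threshold in limma. Ccl3 kept its direction in all 15, with an unadjusted p of 0.000356 to 0.00965 and an adjusted p of 0.0558 to 0.431. Ccl7 kept its direction in the 14 that tested it, with an unadjusted p of 0.00186 to 0.0605, the highest without ethanol array 4, and an adjusted p of 0.154 to 0.651. With the dimmest 25% of genes left out, 3 members remained to be tested and their median was -0.22. With the dimmest 50% left out only Ccl3 remained, with a median of -0.30, 1 member at an unadjusted p under 0.05 and 1 beyond all saline arrays. Leaving out 1 array at a time, the members' median ran from -0.18 without ethanol array 4 to -0.043 without ethanol array 2. There were 2 to 4 members at an unadjusted p under 0.05 and 2 to 6 beyond all saline arrays, the highest counts without an ethanol array, where 1 ethanol array is left and is assumed to vary like the saline arrays. Without ethanol array 2, the 6 members beyond all saline arrays were 3 below and 3 above. Without ethanol array 4, they were 6 below and 0 above. A single ethanol array falls beyond all saline arrays more easily than 2 do, and how many of all genes did so was not counted. These counts therefore do not show that the members differ from other genes. After quantile normalization, 1 member had both ethanol arrays below all saline arrays and 1 had both above, against 2 and 0 as reported. At least 1 of Ccl3 and Ccl7 thus lost its separation there. The share of all genes so separated in that setting was not counted. Differences near 0 changed sign. Il1b was 0.035 after quantile normalization and 0.016 after centring on receptor genes, and ran from -0.074 to 0.028 over the single arrays left out. Over the same, Ccl12 ran from -0.22 to 0.097, Il6 from -0.023 to 0.045 and Tnf from -0.0099 to 0.083. Among all genes, 12 passed as reported (9 higher and 3 lower), 52 with the dimmest 50% left out, 32 with a trended robust prior, 34 with array weights and 4 to 23 with single arrays left out. With no variance prior 0 passed in limma, where 1909 had an unadjusted p under 0.05. After centring on the median of all genes or quantile normalization 7 were higher and 1 lower, and after centring on receptor genes 9 and 1. The causes were not tested. No paired analysis was possible because the labels do not say which pools share litters and the 2 groups share no replicate number, so the fit treats pools that hold littermates as independent. Signal near background limits what 8 of the 10 members can show.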

Other observations

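The list of other cytokines held 4 further genes at an unadjusted p under 0.05, named here after their values were seen. Il33, an alarmin made by glia, had 7.96 ± 0.07 with saline and 8.12 ± 0.10 with ethanol, a difference of 0.16 ± 0.07 (limma adjusted p = 0.391). Tgfb1, an anti-inflammatory ligand on which microglia depend, had 7.48 ± 0.06 and 7.33 ± 0.05, a difference of -0.15 ± 0.06 (0.378). Il1rn, the natural antagonist of interleukin-1, and Tnfsf10, a death receptor ligand, lay near background with differences of -0.15 ± 0.06 (0.381) and -0.18 ± 0.06 (0.290). Tgfb3, given above, lay on the opposite side of 0 from Tgfb1, and no difference between them was tested.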
